A study of Mus musculus with 6 samples.

Results

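Transcripts of 10 genes of the transforming growth factor beta (TGF-beta) and bone morphogenetic protein (BMP) pathways were followed in mouse kidney, out of 24346 gene symbols measured. They were chosen by name: the ligand genes Tgfb1, Tgfb2 and Tgfb3, the receptor genes Tgfbr1, Tgfbr2 and Tgfbr3, the latent binding protein gene Ltbp1, the ligand gene Bmp7 and the inhibitory SMAD genes Smad6 and Smad7. The tissue was kidney of C57BL/6 mice after surgery, in a series on renal congestion, and the 6 libraries fall into 3 labelled IVCC and 3 labelled Sham. What IVCC stands for is not written out in the labels, nor are the time after surgery, the age or the sex of the mice. Nothing in them ties each replicate to an animal of its own, so each p-value measures the spread between these libraries, which may be technical.

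TGF-beta is secreted in a latent complex in which the LTBP proteins tie it to the extracellular matrix, and it acts only after release, for example by integrins. It then brings the type II receptor TGFBR2 together with the type I receptor TGFBR1, which phosphorylates SMAD2 and SMAD3, and these enter the nucleus with SMAD4 and turn on matrix genes. BMP ligands use their own receptors and SMAD1, SMAD5 and SMAD9. SMAD6 and SMAD7 are feedback inhibitors induced by the signals that they block, SMAD6 acting mainly on the BMP branch and SMAD7 on both branches. In the kidney TGF-beta is known as a driver of fibrosis, and BMP7 as a ligand of the nephron that is needed for kidney development and opposes TGF-beta.

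Values are FPKM, fragment counts scaled to transcript length and library size, which can be compared between genes because they are set per length. Kidney markers were high: the summed level of 7 proximal tubule markers lay between 8817 and 12210 FPKM in the 6 libraries. The 4 adipocyte markers were listed at 0 in all of them, which may be a failed estimate and does not show that fat was absent. Estimated from the size of single-read steps, depth was nominally 8170000 to 9150000 reads for IVCC and 6140000 to 7200000 for Sham, so the IVCC libraries were the deeper ones. The summed FPKM ran from 719896 to 1118258 per library and was highest in the library numbered 3 of each group. Scaling each library to the same sum (TPM) moved the median log2 fold change of all genes by 0.16, and the genes at an unadjusted p under 0.05 from 205 higher and 226 lower in IVCC to 262 and 82. Bulk RNA cannot tell fewer cells of a type from less RNA per cell, which holds for each value below.

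No difference between the groups was called for any of the 8 genes tested, and Tgfb2 and Tgfb3 fell below the filter for testing. For the 8 genes that averaged 1 FPKM or more, limma called 0 at an adjusted p under 0.05 and found 0 at an unadjusted p under 0.05. Over all 12090 genes tested these rules called 0.0% and 3.56%, the latter made up of 1.7% higher and 1.87% lower in IVCC. The 8 adjusted p-values ran from 0.924 to 0.997. The groups overlapped for 9 of the 10 genes, and for the remaining one, Tgfbr2, each IVCC value lay above each Sham value. Such a separation was found for 8.31% of all genes tested, 4.09% with IVCC higher.

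In level the 10 genes spread from the highest library of Tgfbr2, at 19.954 FPKM, to the lowest of Tgfb2, at 0.215 FPKM. Averaged over the 6 libraries, Tgfbr2 stood at 18.2 ± 1.29 FPKM (SD, n = 6) and Bmp7 at 16.9 ± 2.02 FPKM, and their ranges overlapped. Tgfbr1 followed at 10.2 ± 2.27 FPKM, clear of its neighbours on either side. Smad7 (5.15 ± 0.826 FPKM), Tgfb1 (3.93 ± 0.385 FPKM) and Tgfbr3 (3.43 ± 0.353 FPKM) overlapped each with the next. Smad6 lay below them at 2.33 ± 0.311 FPKM and Ltbp1 below Smad6 at 1.57 ± 0.132 FPKM, with no overlap of ranges between these 2 genes. Tgfb3 (0.455 ± 0.126 FPKM) and Tgfb2 (0.314 ± 0.0594 FPKM) were the lowest, overlapped with each other and did not reach the filter of 1 FPKM. Per length, Tgfbr2 and Tgfbr1 were thus above the 3 TGF-beta ligand genes in each library, whereas Tgfbr3 was at about the level of Tgfb1.

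**Figure D1:**
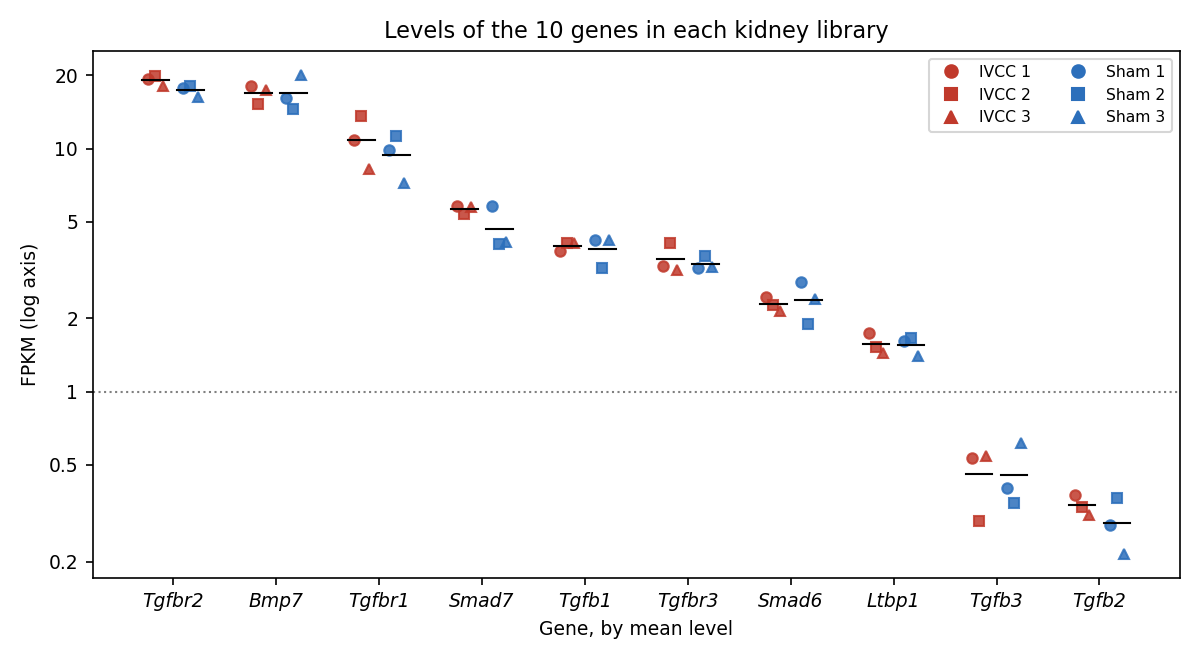
FPKM (log axis) of the 10 genes in each library, ordered by mean level; points are libraries, coloured by group with the replicate number as the shape, black bars are group means and the dotted line is the filter at 1 FPKM. Tgfb3 and Tgfb2 lie below the filter, and Tgfbr2 is the one gene whose IVCC points all lie above its Sham points on this scale (not on TPM).

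Among the ligands, Tgfb1 (chromosome 7, 25687002 to 25705077, plus strand, GRCm38) carried most of the TGF-beta transcript. It made up 80.7% to 86.6% of the summed FPKM of the 3 ligand genes in each library, Tgfb3 6.2% to 12.2% and Tgfb2 4.3% to 9.3%. The start regions of the most and the least abundant ligand gene are shown because these genes lie at the ends of the range of TGF-beta ligand levels and their windows hold different motifs. Each runs from 250 bases before the start site to 50 after it, from RefSeq on GRCm38.p6, and 6 of the 10 genes had such an entry. In Tgfb1 (chr7:25686752-25687051, plus strand) capitals mark GC boxes, GGGCGG on either strand, of which there are 6; 35.7% of all 32851 promoter windows hold at least 1. In Tgfb2 (chr1:186705940-186706239, minus strand) capitals mark a TATA box, TATAAA, whose first base lies 31 bases before the start site, and 2 CAGAC boxes, the short sequence that SMAD proteins bind. TATAAA on either strand is found in 13.6% of windows and CAGAC in 49.6%. These motifs share no bases with one another in the windows shown, and a match of letters is not a binding site.
Tgfb1: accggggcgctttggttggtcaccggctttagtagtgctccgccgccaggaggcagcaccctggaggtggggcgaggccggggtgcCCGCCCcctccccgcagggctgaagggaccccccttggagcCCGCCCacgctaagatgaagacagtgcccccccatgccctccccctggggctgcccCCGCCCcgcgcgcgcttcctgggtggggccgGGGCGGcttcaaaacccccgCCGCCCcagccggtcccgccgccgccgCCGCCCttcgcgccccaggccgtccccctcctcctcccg
Tgfb2: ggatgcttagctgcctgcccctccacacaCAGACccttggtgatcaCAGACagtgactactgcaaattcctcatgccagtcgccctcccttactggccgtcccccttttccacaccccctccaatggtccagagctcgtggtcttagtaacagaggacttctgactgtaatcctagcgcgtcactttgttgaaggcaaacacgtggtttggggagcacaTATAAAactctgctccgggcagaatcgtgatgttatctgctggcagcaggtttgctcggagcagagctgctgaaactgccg

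The Tgfb1 window was 77.0% G and C, and the Tgfb2 window 54.3%, against a median of 52.7% over all windows. Tgfb1, the form made by most immune and stromal cells and by platelets, measured 3.77, 4.09 and 4.08 FPKM in IVCC replicates 1 to 3 and 4.21, 3.21 and 4.21 FPKM in Sham. The 3 IVCC values lay inside the Sham range. Its group means were 3.98 ± 0.178 and 3.88 ± 0.575 FPKM (SD, n = 3 each), and its log2 fold change was 0.04, with a 95% interval of -0.27 to 0.35. Fold changes here are IVCC minus Sham of log2(FPKM + 1), a scale that understates the change of low genes.

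Tgfb2 (chromosome 1, 186622792 to 186705989, minus strand), a ligand that needs TGFBR3 for efficient binding, measured 0.374, 0.336 and 0.312 FPKM in IVCC and 0.282, 0.366 and 0.215 FPKM in Sham. The lowest 2 values were Sham libraries, but Sham replicate 2 lay among the IVCC values. Tgfb3 (chromosome 12, 86056745 to 86079041, minus strand), the third isoform, measured 0.531, 0.294 and 0.545 FPKM in IVCC and 0.402, 0.347 and 0.612 FPKM in Sham, with the groups fully mixed. These levels correspond to only about 5 to 13 nominal reads per library for Tgfb2 and 8 to 16 for Tgfb3, so counting error alone is large and a moderate difference was not detectable at this depth. The ratio of Tgfb1 to the sum of Tgfb2 and Tgfb3, which does not depend on how a library is scaled, averaged 5.14 ± 1.20 in IVCC and 5.25 ± 0.835 in Sham (exact two-sided permutation test, p = 0.8).

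Ltbp1 (chromosome 17, 75005568 to 75392512, plus strand), which anchors latent TGF-beta in the matrix, was close to equal in the groups. It measured 1.75, 1.53 and 1.44 FPKM in IVCC and 1.62, 1.66 and 1.41 FPKM in Sham, fully overlapping. Its log2 fold change was 0.00, with an interval of -0.32 to 0.32, and -0.52 to 0.54 with a pseudocount of 0.1 in place of 1. Of 16 other genes of latent TGF-beta storage and release, 12 were tested, and 5 of these had each IVCC value above each Sham value (4.09% of all genes): Ltbp3, Emilin1, Thbs1, Furin and Mmp14. Limma called 0 of the 12 after adjustment over all genes, and 3 had an unadjusted p under 0.05, all higher (1.7% of all genes). The median log2 fold change of the list was 0.23, against -0.01 over all genes.

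Ltbp3, a second LTBP gene, measured 5.42, 5.27 and 5.59 FPKM in IVCC and 4.27, 4.59 and 4.19 FPKM in Sham (limma log2 fold change 0.27, SE 0.11, adjusted p = 0.924). Emilin1, a matrix glycoprotein that restrains processing of the TGF-beta precursor, stood at 7.31 ± 0.943 FPKM (IVCC) and 5.24 ± 0.753 FPKM (Sham). Thbs1, thrombospondin 1, which can activate latent TGF-beta, averaged 7.30 ± 0.615 and 5.38 ± 0.903 FPKM. Furin, the protease that cleaves the precursor, averaged 59.6 ± 1.31 and 51.9 ± 1.86 FPKM. These differences did not pass the adjustment. On TPM Furin and Mmp14 overlapped, whereas Itgb5 and Mmp2 separated with IVCC higher. The list thus had 5 such genes on TPM as well, where 715 of all 12090 genes tested separated in that direction. The count of 3 at an unadjusted p under 0.05 fell to 0 without IVCC replicate 1 and to 1 without any one of IVCC replicates 2 and 3 and Sham replicates 2 and 3. Without both libraries numbered 3, a setting added after the data had been seen, it was 0 and the median was 0.25. The integrin gene Itgb6, whose product activates TGF-beta on epithelium, overlapped, at means of 27.04 ± 3.30 and 28.35 ± 3.59 FPKM. Ltbp4 (5.57 ± 0.502 and 4.997 ± 0.515 FPKM) and the integrin gene Itgb8 (6.62 ± 4.34 and 3.83 ± 2.71 FPKM) overlapped as well.

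Markers of fibroblasts and pericytes, which make much of the matrix, were also higher in level in the IVCC libraries. Their summed level, over 6 markers, ran from 36.4 to 43.0 FPKM in IVCC and from 30.6 to 35 FPKM in Sham. Of the 5 markers tested 4 did not overlap between the groups, all with IVCC higher (4.09% of all genes). Dcn, decorin, was the exception, and no marker of this list was listed at 0. As a share of that sum Ltbp1 came to 4.54%, 4.20% and 3.34% in IVCC and 4.63%, 4.75% and 4.60% in Sham, each IVCC value below each Sham value. The same held for 23.8% of all genes tested when set against this sum, which was itself higher in each IVCC library. Over the 10 genes and 5 marker sums, 7 of 50 such shares did not overlap, all with IVCC lower. Of these, 4 were shares of the sum of podocyte markers. That sum was itself higher in each IVCC library, at 56.9 to 100.8 FPKM against 47.8 to 50.2 FPKM in Sham. For the sums other than that of fibroblasts and pericytes, the share over all genes was not counted. The part of cell make-up in these values was not tested.

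Of the receptors, Tgfbr2 showed the one separation among the 10 genes, by a narrow margin. Tgfbr2 (chromosome 9, 116084293 to 116175360, minus strand), the type II receptor that binds the ligand, measured 19.286, 19.954 and 18.074 FPKM in IVCC and 17.746, 18.043 and 16.250 FPKM in Sham. The lowest IVCC library was thus just above the highest Sham library. The means were 19.1 ± 0.953 and 17.4 ± 0.961 FPKM, the log2 fold change 0.13 (SE 0.10, interval -0.11 to 0.37) and limma's adjusted p 0.924. When each library was scaled to the same sum (TPM), the groups overlapped and 0 of the 8 genes tested separated. Markers of endothelial cells, which are rich in TGFBR2, were at a higher summed level in the IVCC libraries. The sum of 8 markers was 159.4 to 167.2 FPKM against 136.9 to 153.9 FPKM. Of these, 8 of 8 were fitted higher, 3 of them without overlap (4.09% of all genes), and none was listed at 0. Set against that sum, Tgfbr2 came to 10.8% to 12.1% in IVCC and 11.5% to 12.8% in Sham, which overlapped. The part of endothelial content in the Tgfbr2 values was not tested.

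Tgfbr1 (chromosome 4, 47353222 to 47414931, plus strand), the type I receptor kinase, measured 10.9, 13.6 and 8.21 FPKM in IVCC and 9.84, 11.3 and 7.24 FPKM in Sham. In each group the library numbered 2 was the highest and the one numbered 3 the lowest, and the groups overlapped widely. Its log2 fold change was 0.18 (SE 0.21), with the widest interval of the 8 genes at a pseudocount of 1, -0.31 to 0.67. It was 0.02 without IVCC replicate 2 or without Sham replicate 3, 0.30 without Sham replicate 2 and 0.35 without IVCC replicate 3. On that scale its spread within groups was larger than that of 82.4% of all genes tested, whereas the other 7 genes lay below the median. With a pseudocount of 0.1 the widest interval was that of Ltbp1, -0.52 to 0.54, against -0.33 to 0.72 for Tgfbr1. The summed FPKM of the libraries went the other way, lowest in number 2 and highest in number 3 of each group, and its part in the Tgfbr1 values was not tested. The ratio of Tgfbr1 to Tgfbr2 averaged 0.566 ± 0.113 in IVCC and 0.541 ± 0.0898 in Sham (exact two-sided permutation test, p = 0.7).

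Tgfbr3 (chromosome 5, 107106570 to 107289629, minus strand), the co-receptor betaglycan, measured 3.28, 4.07 and 3.15 FPKM in IVCC and 3.225, 3.604 and 3.242 FPKM in Sham. IVCC replicate 2 was the highest library and IVCC replicate 3 the lowest, so the Sham values lay inside the IVCC range (log2 fold change 0.04, interval -0.27 to 0.35). Of 16 other receptors and co-receptors of the family 10 were tested. Limma called 0 of them, 0 had an unadjusted p under 0.05, and 1, Eng, separated with IVCC higher (4.09% of all genes). Eng, the endothelial co-receptor endoglin, measured 26.0, 24.1 and 31.8 FPKM in IVCC and 23.7, 22.4 and 20.5 FPKM in Sham, beside the endothelial sums given above, whose part was not tested. Acvrl1, the endothelial type I receptor ALK1, averaged 4.04 ± 0.711 and 3.46 ± 0.474 FPKM and overlapped, though not on TPM. The BMP receptor genes Bmpr1a and Bmpr2 overlapped as well, at log2 fold changes of 0.19 and 0.13. Acvr2b, an activin type II receptor gene, was the 1 receptor fitted lower, at -0.05, and 0.08 on TPM.

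**Figure D2:**
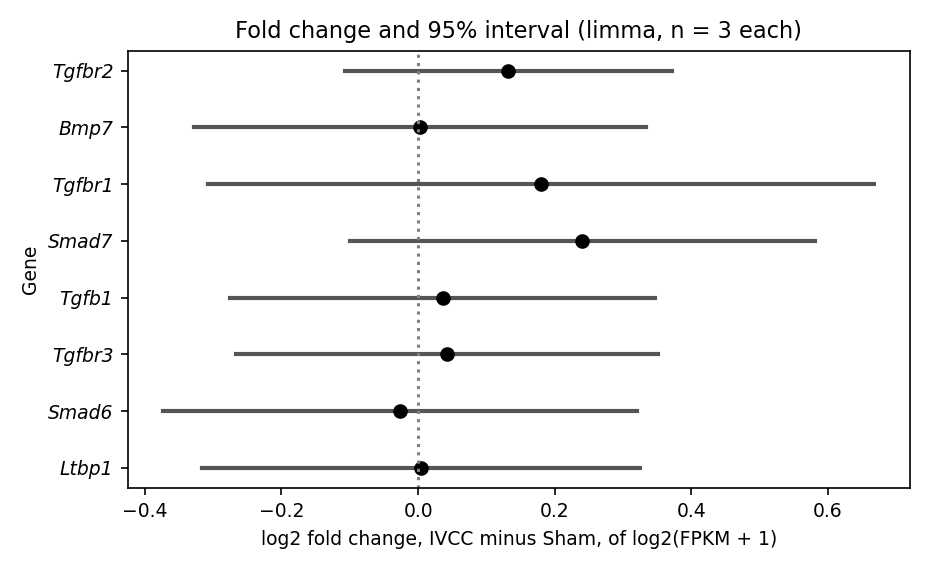
Log2 fold change (IVCC minus Sham, on log2(FPKM + 1)) of the 8 genes that passed the filter; points are limma estimates from 3 libraries per group and lines are 95% intervals. Each interval includes 0, and that of Tgfbr1 is the widest.

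Bmp7 (chromosome 2, 172868012 to 172940321, minus strand) was the most abundant ligand gene of the 10 and was nearly equal in the groups. It measured 18.0, 15.2 and 17.4 FPKM in IVCC and 16.2, 14.6 and 20.1 FPKM in Sham. The Sham libraries held both the lowest and the highest value. The means were 16.89 ± 1.46 (IVCC) and 16.96 ± 2.84 FPKM (Sham). On the log2 scale the difference was 0.00, and its interval ran from -0.33 to 0.33. The ratio of Bmp7 to Tgfb1 averaged 4.26 ± 0.522 in IVCC and 4.39 ± 0.488 in Sham (exact two-sided permutation test, p = 0.7). Bmp7 is made by podocytes and the distal nephron. Podocyte markers summed to 56.9 to 100.8 FPKM in IVCC and 47.8 to 50.2 FPKM in Sham over 7 genes. Of these, 7 of 7 were fitted higher, 3 of 7 were separate with IVCC higher (4.09% of all genes), and none was at 0. The 5 markers of the distal convoluted and connecting tubule overlapped. Bmp7 did not separate as a share of either sum.

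Of 26 other ligand genes of the superfamily only 4 reached the filter, and 9 were listed at 0 in all 6 libraries. Limma called 0 of the 4. Bmp6, a ligand of endothelium and tubules, measured 15.61, 15.849 and 12.982 FPKM in IVCC and 12.231, 12.945 and 10.077 FPKM in Sham. Each IVCC value lay above each Sham value by a small margin, a separation found for 4.09% of all genes in that direction. Gdf10, a BMP3-related ligand, separated too, at 2.66 ± 0.0715 and 1.75 ± 0.373 FPKM. It was the 1 gene of the list with an unadjusted p under 0.05, with IVCC higher (1.7% of all genes). That count was 0 without IVCC replicate 1 or without Sham replicate 1, 2 without Sham replicate 2 and 3 without IVCC replicate 3, 1 of the 3 being lower. On TPM Gdf10 separated and Bmp6 did not. Bmp4, a ligand of stroma and the developing ureter, stood at 16.8 ± 2.67 FPKM (IVCC) and 20.4 ± 0.943 FPKM (Sham), with overlap. Gdf15, a stress-induced ligand, averaged 4.50 ± 2.77 and 4.20 ± 0.615 FPKM, with IVCC replicate 3 high at 7.66 FPKM. Bmp2 and the inhibin subunit gene Inhbb were under the filter, at means of 0.381 and 0.434 FPKM over the 6 libraries.

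Secreted antagonists and modulators of BMP went in both directions. Of 22 listed 11 were tested, 7 fitted higher and 4 lower, with a median log2 fold change of 0.03 (-0.04 without IVCC replicate 3 and 0.11 without Sham replicate 2). Limma called 0, and 1 had an unadjusted p under 0.05, Chrdl1, a chordin-like BMP antagonist, lower in IVCC (1.87% of all genes). It measured 0.734, 1.04 and 1.32 FPKM in IVCC and 1.37, 3.66 and 1.84 FPKM in Sham. Each IVCC value lay below each Sham value, a separation found for 4.22% of all genes in that direction. Its unadjusted p was no longer under 0.05 without IVCC replicate 1, IVCC replicate 2 or Sham replicate 3. The same held on TPM, with a pseudocount of 5 and without both libraries numbered 3. Its log2 fold change was -0.65, and -0.37 without Sham replicate 2. Sostdc1, the distal tubule antagonist of BMP7 also called USAG-1, stood at 48.6 ± 3.59 and 42.7 ± 3.72 FPKM, with no overlap (log2 fold change 0.19). Fstl1, a follistatin-like glycoprotein, separated as well, at 6.66 ± 0.127 and 5.52 ± 0.656 FPKM (4.09% of all genes separated with IVCC higher). On TPM 0 antagonists separated with IVCC higher. Grem1, which binds BMPs, was under the filter. The antagonist gene Nbl1 and the BMP7 enhancer gene Kcp overlapped, at log2 fold changes of -0.03 and 0.03.

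Among the feedback inhibitors, neither Smad7 nor Smad6 passed the test between the groups. The start region of Smad6 is shown because it holds the sequence that SMAD proteins are known to bind. In Smad6 (chr9:64022010-64022309, minus strand, RefSeq on GRCm38.p6) capitals mark the palindromic SMAD binding element, GTCTAGAC, which lies from 4 bases before the start site to 4 after it. Only 70 of 32851 promoter windows, 0.213%, hold this motif, and it was absent from the windows of the other 5 genes with an entry. The window also holds 4 GC boxes, GGGCGG on either strand, and no CAGAC. These are matches of letters.
Smad6: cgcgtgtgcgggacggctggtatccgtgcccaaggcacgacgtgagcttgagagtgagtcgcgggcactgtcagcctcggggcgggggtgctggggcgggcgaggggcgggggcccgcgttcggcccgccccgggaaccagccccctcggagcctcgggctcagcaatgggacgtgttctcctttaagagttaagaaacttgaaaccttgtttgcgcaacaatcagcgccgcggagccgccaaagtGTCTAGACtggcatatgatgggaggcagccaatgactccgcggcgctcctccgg

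Smad7 (chromosome 18, 75367529 to 75395935, plus strand) had the largest fitted difference of the 8 genes tested over all 6 libraries. It measured 5.78, 5.38 and 5.73 FPKM in IVCC and 5.79, 4.07 and 4.13 FPKM in Sham. The 3 IVCC libraries lay close together and above Sham replicates 2 and 3, while Sham replicate 1 was the highest of all 6. The means were 5.63 ± 0.221 (IVCC) and 4.66 ± 0.979 FPKM (Sham). The log2 difference was 0.24 (SE 0.15, interval -0.10 to 0.58), and limma's adjusted p was 0.924. Without Sham replicate 1 it was 0.38, with an unadjusted limma p of 0.0305 and an adjusted p of 0.943.

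Smad6 (chromosome 9, 63953076 to 64022059, minus strand) measured 2.44, 2.28 and 2.16 FPKM in IVCC and 2.82, 1.89 and 2.40 FPKM in Sham. The IVCC values lay inside the Sham range, and the log2 fold change was -0.03 (interval -0.37 to 0.32). Its value rests on about 19 to 28 nominal reads per library. Divided by Smad7 within the library, Smad6 came to 0.423, 0.424 and 0.376 in IVCC and 0.487, 0.466 and 0.582 in Sham. Each IVCC ratio lay below each Sham ratio, with means of 0.408 ± 0.0273 and 0.512 ± 0.0616. The exact two-sided permutation test gave p = 0.1, the smallest that 3 against 3 libraries allow, and 0.5 after Benjamini-Hochberg adjustment over the 5 ratios tested. The log2 difference was -0.32.

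**Figure D3:**
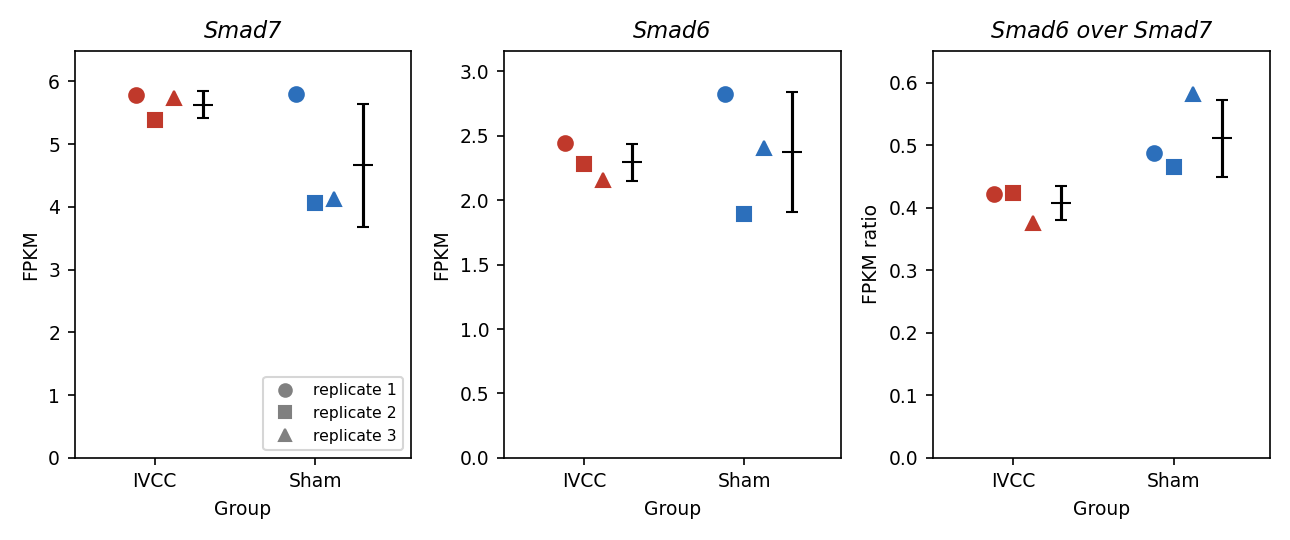
Smad7 and Smad6 in FPKM and their ratio within each library (linear axes from 0); points are libraries with the replicate number as the shape, and bars are the mean and SD of 3 libraries. Sham replicate 1 is high for both genes, and the highest IVCC ratio, 0.424, is below the lowest Sham ratio, 0.466.

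The SMADs that carry the signal were tested for 5 of 6 genes, and limma called 0, with 0 at an unadjusted p under 0.05. Smad3, the main carrier of the fibrotic TGF-beta signal, measured 7.19, 7.82 and 6.88 FPKM in IVCC and 6.27, 6.21 and 5.31 FPKM in Sham. Each IVCC value lay above each Sham value (4.09% of all genes). On TPM this separation was absent. Smad2, Smad4 and Smad5 had log2 fold changes of 0.19, 0.25 and 0.30 and overlapped, and the BMP carrier Smad1 had -0.15 and overlapped. Smad9 was under the filter. Of 17 intracellular regulators tested, 10 fitted higher and 7 lower, with a median of 0.01, -0.07 without Sham replicate 3 and -0.01 without IVCC replicate 2. Pmepa1, a TGF-beta-induced inhibitor of the pathway, was the 1 regulator without overlap (4.09% of all genes with IVCC higher). It measured 8.62, 7.88 and 8.72 FPKM in IVCC and 7.54, 5.89 and 7.83 FPKM in Sham. Smurf2, the ubiquitin ligase that SMAD7 brings to the receptor, and the repressor gene Skil overlapped, at log2 fold changes of 0.22 and 0.16. Tgif1, a corepressor of SMAD2 and SMAD3, had the smallest p among regulators fitted lower (log2 fold change -0.28, with overlap), and the pseudoreceptor gene Bambi was under the filter at 0.966 ± 0.224 FPKM (SD, n = 6).

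Among genes known to be induced by TGF-beta, matrix genes were at higher levels in the IVCC libraries, but none passed the adjustment. Of 22 listed 15 were tested, and 9 of these had each IVCC value above each Sham value (4.09% of all genes). These were Ctgf, Tgfbi, Fn1, Col1a1, Col1a2, Col3a1, Loxl2, Pmepa1 and Thbs1. On TPM Loxl2 overlapped and Bhlhe40 separated with IVCC higher, so that 9 separated there too, beside 715 of all genes tested. Of the 15, 7 had an unadjusted p under 0.05, all higher (1.7% of all genes), and limma called 0 after adjustment. Pmepa1 and Thbs1 are also counted in lists above. The median log2 fold change was 0.34, against 0.04 for the 8 described genes and -0.01 over all genes. Without the libraries numbered 3 the median was 0.27 and 4 had an unadjusted p under 0.05. Without the filter the 22 listed genes had a median of 0.15, against 0.00 over all 17572 genes. Of the 22, 7 were higher and 1 lower at an unadjusted limma p under 0.05, beside 436 and 344 of all genes. Ctgf, connective tissue growth factor, measured 30.1, 36.0 and 44.4 FPKM in IVCC and 21.6, 23.2 and 22.7 FPKM in Sham. Fn1, fibronectin, measured 4.49, 4.20 and 4.07 FPKM in IVCC and 3.04, 2.64 and 1.51 FPKM in Sham. Tgfbi, a matrix protein named for its induction by TGF-beta, averaged 4.84 ± 0.597 and 3.39 ± 0.483 FPKM.

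Not all members of that list went this way. Of the 15 tested 2 were fitted lower, Acta2 and Tagln, the latter at a log2 fold change of -0.27 with overlap. Postn, under the filter, measured 0.401, 0.240 and 0.476 FPKM in IVCC and 0.582, 0.931 and 0.721 FPKM in Sham. Each IVCC value of Postn lay below each Sham value. The contractile gene Acta2 measured 17.3, 6.81 and 17.3 FPKM in IVCC and 20.7, 14.2 and 21.4 FPKM in Sham. IVCC replicate 2 stood apart as the lowest: the log2 fold change was -0.50, and -0.09 without that library. The summed level of 5 smooth muscle markers, Acta2 among them, was also lowest there, at 24.7 FPKM, against 48.4 and 51.5 FPKM in the other IVCC libraries and 42.55 to 57.8 FPKM in Sham. Of these markers 1 of 5 was fitted higher, 1 separated with IVCC lower (4.22% of all genes) and none was listed at 0. Their part was not tested. Several of these genes are themselves markers of fibroblasts, such as Col1a1 and Col1a2, and the list was drawn up with earlier results on the matrix genes of these libraries known, so it is not independent evidence of a direction. The fibroblast and podocyte sums given above lay higher in each IVCC library as well. The macrophage sum over 7 genes was 89.8 to 110.4 FPKM in IVCC and 80.9 to 87.1 FPKM in Sham. Of these, 6 of 7 were fitted higher, 3 were separate with IVCC higher (4.09% of all genes) and none was at 0. The part of these cell types was not tested.

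Genes known to be induced by BMP overlapped between the groups in each of the 4 tested of 9 listed. Id1, a direct BMP target, measured 15.0, 15.6 and 32.1 FPKM in IVCC and 16.793, 11.002 and 29.9 FPKM in Sham, high in the library numbered 3 of each group. Id3, another such target, was also highest in the libraries numbered 3, at 68.2 FPKM in IVCC replicate 3 and 52.0 FPKM in Sham replicate 3. Id2 averaged 259.6 ± 24.1 and 257.5 ± 25.2 FPKM, and Id4 4.69 ± 0.845 and 6.05 ± 1.52 FPKM. The median log2 fold change of the 4 was 0.07 and had no stable sign: it was -0.15 without IVCC replicate 3, -0.12 without Sham replicate 2, 0.18 without IVCC replicate 2, 0.12 without IVCC replicate 1 and 0.23 without Sham replicate 3.

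**Figure D4:**
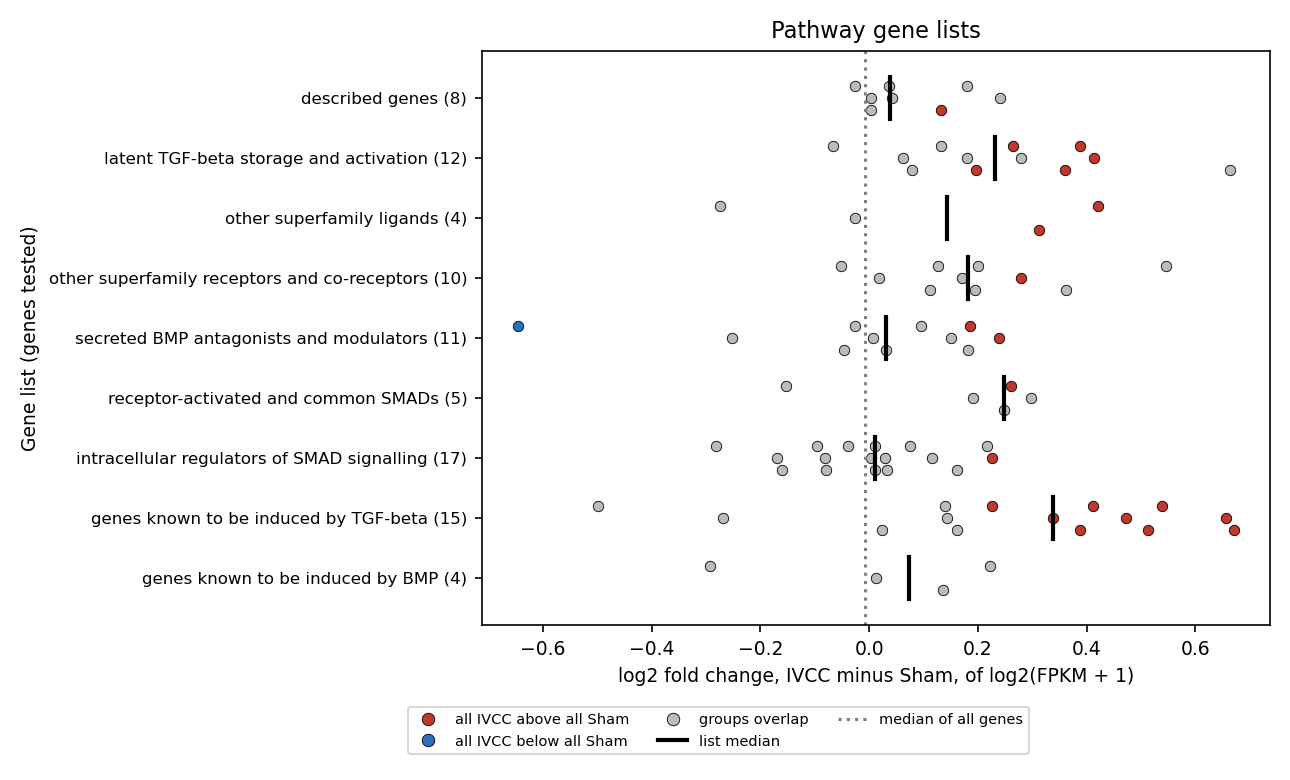
Log2 fold change (IVCC minus Sham, on log2(FPKM + 1)) of each tested gene by list; points are genes, coloured where the groups do not overlap, black bars are list medians and the dotted line is the median of all genes. The 8 described genes have a median of 0.04, and the genes known to be induced by TGF-beta one of 0.34.

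The genes most like each of the described ones over the 6 libraries were found by the mean absolute difference of their deviations in log2(FPKM + 1). For Tgfbr2 this was Nacc1, for Tgfbr1 Fam179b, for Bmp7 Tmem192 and for Ltbp1 Ctnna1. For Tgfb1 it was Dscr3, for Tgfbr3 Ide, for Smad6 L3mbtl2 and for Smad7 Pla2g15. The differences were 0.0148 to 0.0288, where the median over 12089 genes was 0.158 for Ltbp1 and 0.274 for Tgfbr1, and with 6 libraries such matches are a description only. Among the 8 genes themselves, Tgfbr2 and Ltbp1 were closest to each other, at 0.0704.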

How the data were processed

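Kidney RNA was sequenced from stranded mRNA libraries (75 bp, single-end), per the labels' protocols. The authors deposited FPKM, 1 column for each of 6 libraries. The submitters' processing notes name mm10, Cufflinks 2.2.1, TopHat2 2.0.13, SAMtools 0.1.19 and Bowtie2 2.2.3, with no roles, and the annotation is not given in the sources used here.

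Genes averaging 1 FPKM or more (12090; 12256 fell below) were compared two-sided on log2(FPKM + 1) with limma 3.58.1 in R 4.3.3 (trend), with Benjamini-Hochberg adjustment over all of them and a threshold of 0.05, after a test on simulated data. Ratios within libraries had exact permutation tests. Nominal depth assumed fragments of 200 bp and fitted values below 0.1 FPKM as whole multiples of 1 read; 79.9% to 84.7% were whole within 0.1, so counts were not recovered. A gene listed at 0 may be a failed estimate. Coordinates are from GENCODE M21 on GRCm38, the assembly that mm10 names. Exons of Tgfb2, Tgfb3 and Tgfbr3 overlap other gene models, none of them in the table.

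The genes and lists were chosen with earlier results of these data known. Genes named from the lists were set by name, with the smallest p of each list in each direction added. Some genes set by name are not reported here. Furin, Mmp14, Col1a1, Col1a2, Col3a1, Loxl2, Dcn, Acvr1b, Tagln, Postn, Itgb5, Mmp2, Bhlhe40 and Csf1r were named after their values were seen. Settings tried were other pseudocounts, filters, scalings and eBayes options, the replicate block and leaving out each library. Leaving out both libraries numbered 3 was added after seeing the data.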

Additional observations from a re-analysis of the deposited data

How the results depend on the processing

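Depth limits Tgfb2 and Tgfb3 most, and 3 libraries per group leave intervals that include moderate changes in either direction. Over 132 values of the 8 tested genes in other settings, 0 had an adjusted p under 0.05 (0.281 to 1.0) and 17 changed sign. Genes called over the whole table went from 0 to 4 without both libraries numbered 3, and to between 0 and 4 with 1 library left out (4 without IVCC replicate 3), 0 of them among the 10 genes or the lists; the cause was not tested. Genes at an unadjusted p under 0.05 went from 431 to 216 without IVCC replicate 1, 220 without IVCC replicate 2, 1030 without IVCC replicate 3, 1052 without both numbered 3, 282 with a filter at 5 FPKM and 780 with none.

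In deviations from the group means, same-numbered libraries correlated at -0.107, 0.343 and 0.323, and the others at -0.371 to 0.068. Libraries numbered 2 and 3 correlated best with their own number, and those numbered 1 did not. Whether the numbers pair the libraries cannot be told from 3 libraries per group. With the replicate block 2388 genes had an unadjusted p under 0.05 and 0 were called; the lowest adjusted p of the 10 genes was 0.281, for Tgfbr1.

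Log2 fold changes that changed sign were, with quantile normalization, Tgfb1 -0.026, Tgfbr3 -0.021, Ltbp1 -0.059 and Kcp -0.0296. On TPM they were Smad6 0.104, Itgb6 0.106, Gdf15 0.102, Nbl1 0.097 and Acvr2b 0.078. Without both libraries numbered 3 they were Ltbp1 -0.002, Smad6 0.015, Ltbp4 -0.0005, Kcp -0.0774 and Acvr2b 0.037. Bmp7 came to -0.0008 with median ratio scaling and Gdf15 to 0.01 with a pseudocount of 5. With 1 library left out the ranges that crossed 0 were Tgfb1 -0.066 to 0.087, Tgfbr3 -0.047 to 0.10, Ltbp1 -0.044 to 0.042, Bmp7 -0.093 to 0.13, Smad6 -0.13 to 0.069, Itgb6 -0.15 to 0.032, Gdf15 -0.41 to 0.24, Bmpr2 -0.14 to 0.42, Nbl1 -0.12 to 0.064, Kcp -0.061 to 0.10, Skil -0.025 to 0.35, Id1 -0.21 to 0.50, Id2 -0.0599 to 0.0859, Id3 -0.10 to 0.47 and Acvr2b -0.20 to 0.0515. For ratios they were Tgfb1 over Tgfb2 plus Tgfb3 -0.23 to 0.0932, Tgfbr1 over Tgfbr2 -0.0846 to 0.21, Bmp7 over Tgfb1 -0.14 to 0.0477 and Ltbp1 over the 3 ligands -0.19 to 0.11. The causes were not tested.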

Other observations

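Bmpr2, the BMP type II receptor gene, measured 5.998, 3.701 and 2.588 FPKM in IVCC replicates 1 to 3 and 5.772, 3.329 and 2.099 FPKM in Sham. Acvr1b, an activin type I receptor gene, measured 8.921, 10.725 and 5.857 FPKM in IVCC and 7.067, 7.134 and 2.903 FPKM in Sham. In each group both were lowest in the library numbered 3, as Tgfbr1 was. So were other listed genes, such as Bmpr1a, Smad5, Smurf2 and Itgb8, and the share over all genes was not counted.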
